A study of Rattus norvegicus with 6 samples.

Results

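miR-463, miR-465 and miR-471 are 3 microRNA (miRNA) hairpins of the X chromosome, each of which yields a mature miRNA from its 5′ side (the 5p arm) and another from its 3′ side (the 3p arm). The 6 arms were chosen by name from the 721 miRNAs listed in a small RNA sequencing table of rat testis, and all 6 were listed. The diabetic group was 3 testis libraries of Sprague-Dawley rats given streptozotocin (STZ), which destroys insulin-producing cells, and sampled at 8 weeks. The normal group was 3 testis libraries of Sprague-Dawley rats, which by the study's methods received citrate buffer. Those methods add a high-fat diet before STZ and do not say what the controls ate. The labels give no age and do not say that replicates of a group were separate animals, so the p-values measure the spread between these samples. Levels are in CPM (counts-per-million), the reads of a miRNA scaled so that the listed miRNAs of each library sum to the same total.

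An miRNA is cut from a folded precursor transcript, and usually one of its arms is kept on an Argonaute protein while the other is largely degraded. The kept arm finds target mRNAs mainly through its seed, bases 2 to 8. In rodents a dense X-linked cluster of miRNA genes, which includes these 3, is known for expression that is largely restricted to the testis and for rapid change in sequence between mammals. Mouse miR-471-5p has been studied in Sertoli cells, the somatic cells that nurse developing germ cells, and mouse miR-465 exists as several near copies.

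The mature sequences are shown because the 6 seeds define what each arm could pair with. They are from RefSeq (assembly GRCr8), 5′ to 3′, with the seed in capitals, and each of the 6 names matched a RefSeq entry.
rno-miR-471-5p: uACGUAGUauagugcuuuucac
rno-miR-471-3p: uGAAAGGUgccauacuaugu
rno-miR-463-5p: uACCUAAUuuguuguccauca
rno-miR-463-3p: uGAUAGACgccaauuuggguag
rno-miR-465-5p: uAUUUAGAacggugcuggugug
rno-miR-465-3p: uGAUCAGUgccuuucugaguag
No seed was shared. Each of the 6 seeds was found in 0 other mature rat miRNAs of the 693 names in the RefSeq table, and bases 2 to 7 alone were also shared with 0 others. The arms did share their first bases. All 6 began with U, as did 251 of the 693 mature names (36.2%). All 3 of the 5p arms began with UA, which 70 of the 693 did (10.1%), and all 3 of the 3p arms began with UGA, which 36 did (5.19%). The nearest other mature sequence lay in the same cluster for 4 of the arms. miR-463-3p matched miR-743a-3p at 18 of 23 aligned positions (78.3%) and miR-465-3p matched miR-881-3p at 17 of 23 (73.9%), while miR-463-5p matched miR-741-5p at 14 of 21 and miR-471-3p matched miR-743b-3p at 15 of 23. The remaining arms, miR-471-5p and miR-465-5p, came nearest to miR-144-3p and miR-3559-3p, outside the cluster, also at 15 of 23. At that score a match in the cluster was no closer than a match outside it.

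The precursors are shown with both arms in capitals, since the arm ratio is what the sequencing measured.
Mir471: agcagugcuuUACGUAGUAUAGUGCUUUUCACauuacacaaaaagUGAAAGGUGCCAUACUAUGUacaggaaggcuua
Mir463: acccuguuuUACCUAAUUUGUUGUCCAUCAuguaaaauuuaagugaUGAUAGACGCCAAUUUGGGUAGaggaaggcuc
Mir465: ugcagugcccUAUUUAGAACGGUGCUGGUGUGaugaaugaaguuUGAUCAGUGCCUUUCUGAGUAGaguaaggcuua
In GRCr8 all 3 lie on the minus strand, Mir471 at chrX:150462896-150462973, Mir463 at chrX:150466822-150466899 and Mir465 at chrX:150488166-150488242. The gene table gives no exons, so exonic or intronic position was not assigned. The annotated span of the lncRNA gene LOC120099202 covers Mir471, and that of LOC108349259 covers Mir465 and overlaps one end of Mir463. The 3 are among 14 miRNA genes that follow each other from Mir743a to Mir465, on the Slitrk2 side of the region between Slitrk2 and Fmr1. In that order Mir471 is the fifth, Mir463 the eighth and Mir465 the last. Between the arms lie 13 bases in Mir471, 16 in Mir463 and 12 in Mir465. Predicted folding energies were -30.0, -24.1 and -29.4 kcal/mol, against a median of -37.9 kcal/mol over 419 rat hairpins. These energies were not scaled for hairpin length, which was 78, 78 and 77 bases for the 3, so they do not compare stability at equal length. The precursors resembled each other only in part, with 62.8% identity between Mir465 and Mir471, 57.5% between Mir463 and Mir471 and 54.3% between Mir463 and Mir465. All 3 nonetheless ended alike. The run AAGGCU, searched on the transcribed strand in the last 12 bases, was in 8 of the 419 hairpins (1.91%), and 6 of those 8 stood in the block from Mir743a to Mir465. That run was noticed in these sequences first and is a description.

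Depth ran from 305476 reads in diabetic replicate 1 to 549446 in diabetic replicate 3, counted over listed miRNAs. One read was worth from 1.82 to 3.27 CPM. The tissue label was checked against miRNAs typical of testicular cell types. The 5 germ-cell miRNAs (the miR-34b, miR-34c and miR-449a arms) summed to between 306978 and 355974 CPM in every library, mostly as miR-34c-5p, and 0 of the 5 was at 0 in any library. This is bulk tissue, in which fewer cells of a type cannot be told apart from less RNA per cell.

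The first question was how much of the testis miRNA pool these hairpins supply. Together the 6 arms held 1.59%, 1.72% and 1.77% of reads in diabetic replicates 1, 2 and 3, and 1.48%, 1.66% and 1.70% in normal replicates 1, 2 and 3. The groups overlapped, and normal replicate 1 was the lowest library. The share was 1.69% ± 0.0964 in diabetic and 1.61% ± 0.119 in normal testis (SD, n = 3 each), a difference of 0.0820 percentage points that was smaller than the spread between replicates (exact permutation p = 0.4). With 3 libraries against 3 that test cannot give a p under 0.1. Single libraries moved the difference widely, to 0.0150 percentage points without normal replicate 1 and to 0.136 without diabetic replicate 1. Most of these reads came from one hairpin. miR-471 supplied 1.22% ± 0.0553 of all reads in diabetic and 1.17% ± 0.0929 in normal testis (SD, n = 3 each; exact permutation p = 0.5), a difference of 0.0507 percentage points that was -0.0013 without normal replicate 1. miR-463 supplied 0.402% ± 0.0435 and 0.372% ± 0.0181 (exact permutation p = 0.3), a difference of 0.0302 percentage points that was 0.0155 without diabetic replicate 2 and 0.0552 without diabetic replicate 1. miR-465 was a minor source at 0.0721% ± 0.00387 and 0.0709% ± 0.00805 (exact permutation p = 1).

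The 6 arms differed widely in level. miR-471-5p was the most abundant, at 11255, 11821 and 12270.5 CPM in diabetic replicates 1, 2 and 3 and at 10170, 11513 and 12038.5 CPM in normal replicates 1, 2 and 3. It held 69.6% of the members' reads and ranked 17 of 721 by mean level. Normal replicate 1 was the lowest library and the groups overlapped.

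miR-463 gave more even arms. Its 3p arm stood at 2059, 2610 and 2504 CPM in the diabetic and at 2153, 2365 and 2377 CPM in the normal libraries, and ranked 48. The lowest and the highest libraries were both diabetic. Its 5p arm stood at 1463, 1707 and 1722 CPM in the diabetic and at 1358, 1445 and 1460 CPM in the normal libraries, and ranked 65. All 3 diabetic libraries lay above all 3 normal ones, but the gap between diabetic replicate 1 and normal replicate 3 was 3.30 CPM, about the worth of 1 read in the former.

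The remaining arms were scarcer. miR-465-3p stood at 566, 669 and 604 CPM in the diabetic and at 521, 637 and 624 CPM in the normal libraries. miR-471-3p, the less abundant arm of the most abundant hairpin, stood at 419, 344 and 508 CPM in the diabetic and at 490, 475 and 411 CPM in the normal libraries. For each of these arms the groups overlapped, and diabetic replicate 2 was the highest library for miR-465-3p and the lowest for miR-471-3p. miR-465-5p was the scarcest arm, at 111, 83.3 and 127 CPM in the diabetic and at 95.2, 120 and 130 CPM in the normal libraries. These last values rested on 31 to 70 reads each.

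**Figure D1:**
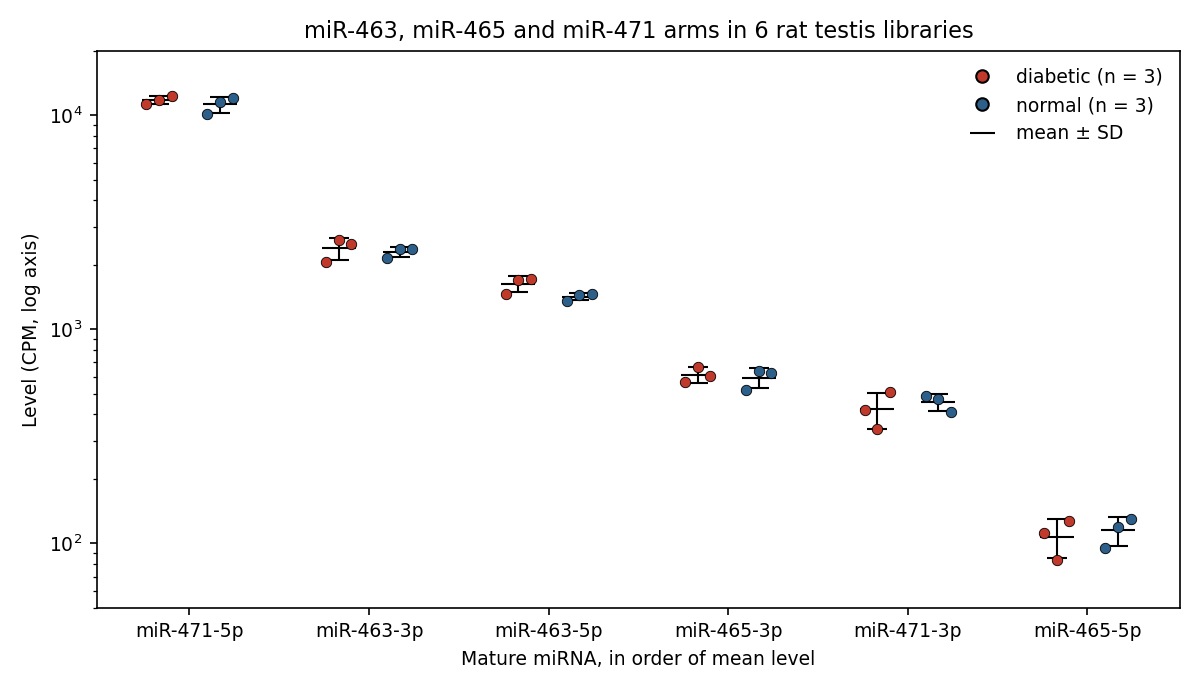
Level of each arm in CPM (log axis) in 3 diabetic (red) and 3 normal (blue) testis libraries, with the mean and SD of each group. The arms run from miR-471-5p, between 10170 and 12270.5 CPM, down to miR-465-5p, between 83.3 and 130 CPM, and the groups overlap for each arm except miR-463-5p.

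The order of the arms was the same in each library. Every arm was higher than the next one down in 6 of 6 libraries, by 4.91-fold for miR-471-5p over miR-463-3p, 1.54-fold for miR-463-3p over miR-463-5p, 2.52-fold for miR-463-5p over miR-465-3p, 1.38-fold for miR-465-3p over miR-471-3p and 3.96-fold for miR-471-3p over miR-465-5p. Each of the 5 steps had an exact sign-flip permutation p of 0.03125 (two-sided, n = 6), also 0.03125 after Benjamini-Hochberg adjustment over the 5, which is the smallest p that 6 libraries allow. The pairs compared were set by the mean levels of these same libraries. Their p-values therefore describe how constant the order was and are not separate support for it. The closest neighbours were miR-465-3p and miR-471-3p, whose log2 difference ran from 0.09 to 0.96 between libraries. These are comparisons of read numbers, and sequence preferences of library preparation between arms were not measured.

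The spread between replicates exceeded counting error to different degrees. Within groups the coefficient of variation was 6.79% for miR-471-5p against 1.43% from counting alone, and 9.47% for miR-463-3p against 3.18%. For miR-465-5p it was 18.4% against 14.8%, so most of that arm's scatter was of the size its read number gives.

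The central comparison asked whether diabetes went with a different level of any arm. It was fitted with limma on log2(CPM + 1) across 578 miRNAs, with Benjamini-Hochberg adjustment over all of them. In that fit 0 of 578 miRNAs (0%) had an adjusted p under 0.05, and 51 (8.82%) had an unadjusted p under 0.05. In the direction of higher levels in diabetic testis the latter were 32 (5.54%). On the recovered reads, edgeR called 2 at an adjusted p under 0.05 and DESeq2 called 1. The members numbered 0 of 6 in each of these counts. Log2 differences, diabetic minus normal, were positive for 4 arms and negative for 2, where 50.5% of the 578 were positive, with a median of 0.05 against 0.0046 over all 578.

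miR-463-5p had the largest difference among the arms. Its mean was 1631 ± 145.1 CPM in diabetic and 1421 ± 55.4 CPM in normal testis (SD, n = 3 each). The log2 difference was 0.20 with a standard error of 0.11, a 1.14-fold higher level with a 95% interval from 0.969-fold to 1.35-fold (limma adjusted p = 0.685, exact permutation p = 0.1). It was the 1 arm of 6 whose groups did not overlap, and 14.9% of all 578 miRNAs had groups that did not overlap, 7.96% with the diabetic one higher. Its unadjusted p passed under 0.05 only without diabetic replicate 1, where the log2 difference was 0.27. The other arm of the hairpin, miR-463-3p, differed by 0.05 with a standard error of 0.11 (95% interval from 0.876-fold to 1.23-fold, limma adjusted p = 0.846).

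The log2 difference of miR-471-5p was 0.07 (SE 0.09), from means of 11782 ± 509.1 CPM in diabetic and 11240 ± 964 CPM in normal testis (SD, n = 3 each). The 95% interval ran from 0.919-fold to 1.20-fold (limma adjusted p = 0.808), the narrowest of the 6. Without normal replicate 1, the lowest library, the log2 difference was 0.00025, and without normal replicate 3 it was 0.12. miR-471-3p differed in the other direction, by -0.13 with a standard error of 0.17 (95% interval from 0.714-fold to 1.17-fold, limma adjusted p = 0.808).

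The miR-465 arms also lay on either side of 0. miR-465-3p differed by 0.05 with a standard error of 0.14 (95% interval from 0.838-fold to 1.27-fold, limma adjusted p = 0.874). miR-465-5p differed by -0.11 with a standard error of 0.25 (95% interval from 0.638-fold to 1.35-fold, limma adjusted p = 0.848). The intervals of all 6 arms included 1-fold, and no direction was shown for any of them. With upper-quartile factors, which moved the median of all miRNAs to -0.10, miR-463-3p, miR-465-3p and miR-471-5p moved to -0.06, -0.06 and -0.04. TMM factors moved miR-465-3p to -0.0027. Without diabetic replicate 2, miR-465-5p moved to 0.06, miR-471-3p to 0.01, miR-463-3p to -0.02 and miR-465-3p to -0.02. Without normal replicate 1, miR-465-3p moved to -0.04.

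**Figure D2:**
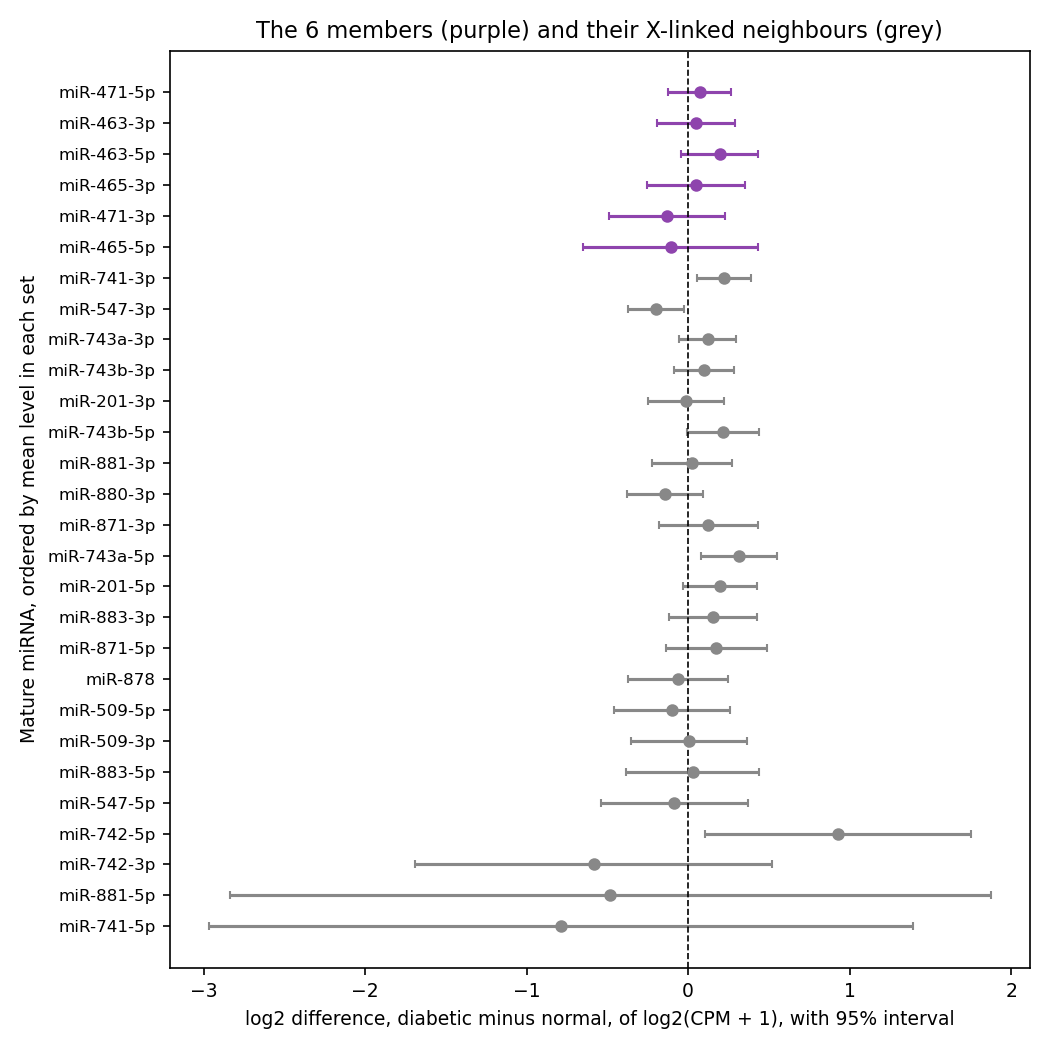
Log2 difference, diabetic minus normal, of log2(CPM + 1) with its 95% interval from limma, for the 6 arms of miR-463, miR-465 and miR-471 (purple) and the 22 tested arms of their X-linked neighbours (grey), each set ordered by mean level. All 6 purple intervals cross 0, and intervals widen toward the scarce arms.

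The second question was which arm of each hairpin gave more reads, and whether that differed in diabetes. The 5p arm led in miR-471, and the 3p arm in miR-465 and miR-463. Binding to Argonaute and sequence preferences of library preparation between arms were not measured. For miR-471 the 5p arm exceeded the 3p arm 26.2-fold (mean log2 ratio 4.71 ± 0.25, SD over 6 libraries). For miR-465 the 3p arm exceeded the 5p arm 5.44-fold (log2 ratio -2.44 ± 0.28), and for miR-463 it did so 1.54-fold (log2 ratio -0.62 ± 0.09). The same arm led in 6 of 6 libraries for each hairpin (exact sign-flip permutation p = 0.03125 for each, and the same after adjustment over 3). Referred to the precursors above, the leading arm began with UACGU in Mir471 and with UGAU in Mir463 and Mir465. Among 127 hairpins with both arms measured, the 5p arm led in 74 and the 3p arm in 53. The median size of the log2 ratio was 3.34, and 76, 49 and 20 of the 127 hairpins had a smaller one than miR-471, miR-465 and miR-463.

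**Figure D3:**
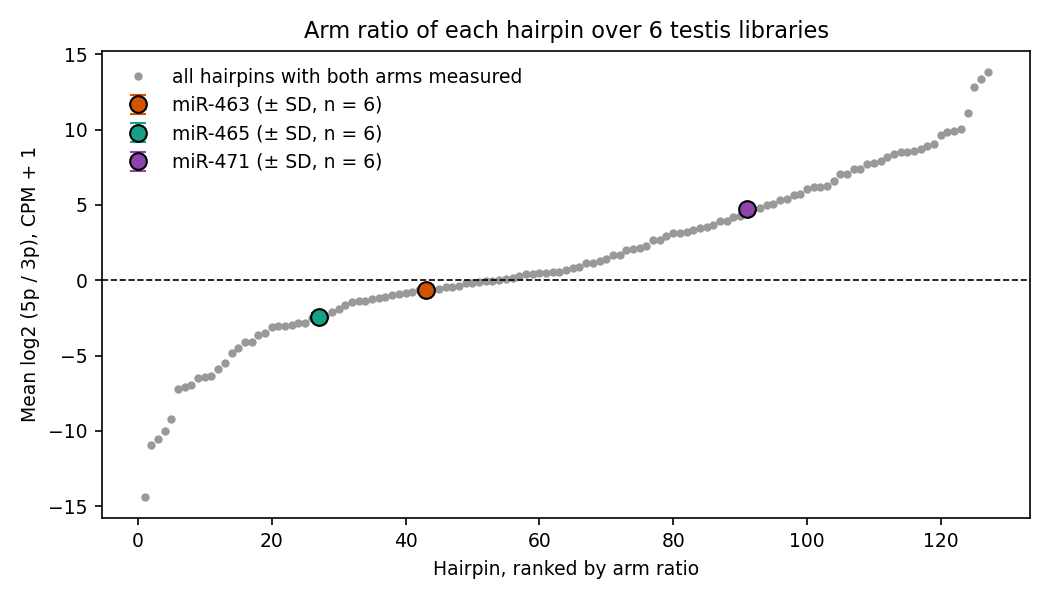
Mean log2 ratio of 5p to 3p level (CPM + 1) of 127 rat hairpins in 6 testis libraries, in order, with miR-463, miR-465 and miR-471 in colour and their SD over the libraries. miR-471 lies on the 5p side at 4.71, and miR-463 and miR-465 on the 3p side at -0.62 and -2.44.

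As a share of the hairpin's reads, the 5p arm of miR-463 took 41.5%, 39.5% and 40.7% in diabetic replicates 1, 2 and 3 and 38.7%, 37.9% and 38.1% in normal replicates 1, 2 and 3. All 3 diabetic libraries lay above all 3 normal ones. The means were 40.6% ± 1.01 and 38.2% ± 0.396 (SD, n = 3 each; exact permutation p = 0.1, the smallest possible), a difference of 2.39 percentage points. Exact binomial 95% intervals of single libraries were wider than that, from 37.1% to 42.0% in diabetic replicate 2 and from 36.2% to 41.1% in normal replicate 1. Intervals of this kind cover counting error only. No molecular identifiers were stated, so duplicate reads could not be told apart and the intervals may be too narrow. In the fit across all 127 hairpins the log2 arm ratio differed by 0.14 with a standard error of 0.13 (95% interval from -0.14 to 0.43, limma adjusted p = 0.828). Of the 127 hairpins, 1 (0.787%) had an adjusted p under 0.05, 6 (4.72%) had an unadjusted p under 0.05, and 13 (10.2%) had groups that did not overlap. The members numbered 0, 0 and 1 of 3 in these counts. With the ratio higher in diabetic testis, 1.57% passed the unadjusted p, 7.09% did not overlap and 50.4% had a positive difference, against 0, 1 and 2 of the 3 members.

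The 5p arm of miR-465 took 16.4%, 11.1% and 17.4% of the hairpin's reads in the diabetic and 15.4%, 15.8% and 17.3% in the normal libraries. Diabetic replicate 2 was the lowest, on 31 reads of the 5p arm and 249 of the 3p arm (95% interval from 7.65% to 15.3%). The log2 arm ratio differed by -0.16 with a standard error of 0.31 (95% interval from -0.85 to 0.54, limma adjusted p = 0.900, exact permutation p = 0.9). Without diabetic replicate 2 the difference was 0.08.

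The 5p arm of miR-471 took 96.4%, 97.2% and 96.0% in the diabetic and 95.4%, 96.0% and 96.7% in the normal libraries. Diabetic replicate 2 was the highest and normal replicate 1 the lowest, and the groups overlapped. The log2 arm ratio differed by 0.20 with a standard error of 0.18 (95% interval from -0.21 to 0.61, limma adjusted p = 0.828, exact permutation p = 0.5). Leaving out single libraries took this difference from 0.06, without diabetic replicate 2, to 0.33, without normal replicate 3. Libraries of miR-471 scattered more than counting gives. Chi-square per degree of freedom for the arm reads over the 6 libraries was 5.13, against 1.48 for miR-463 and 1.24 for miR-465. This measure rises with read number, so it does not rank the hairpins by scatter. The SD of the log2 ratio over the 6 libraries was 0.28 for miR-465, 0.25 for miR-471 and 0.09 for miR-463.

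**Figure D4:**
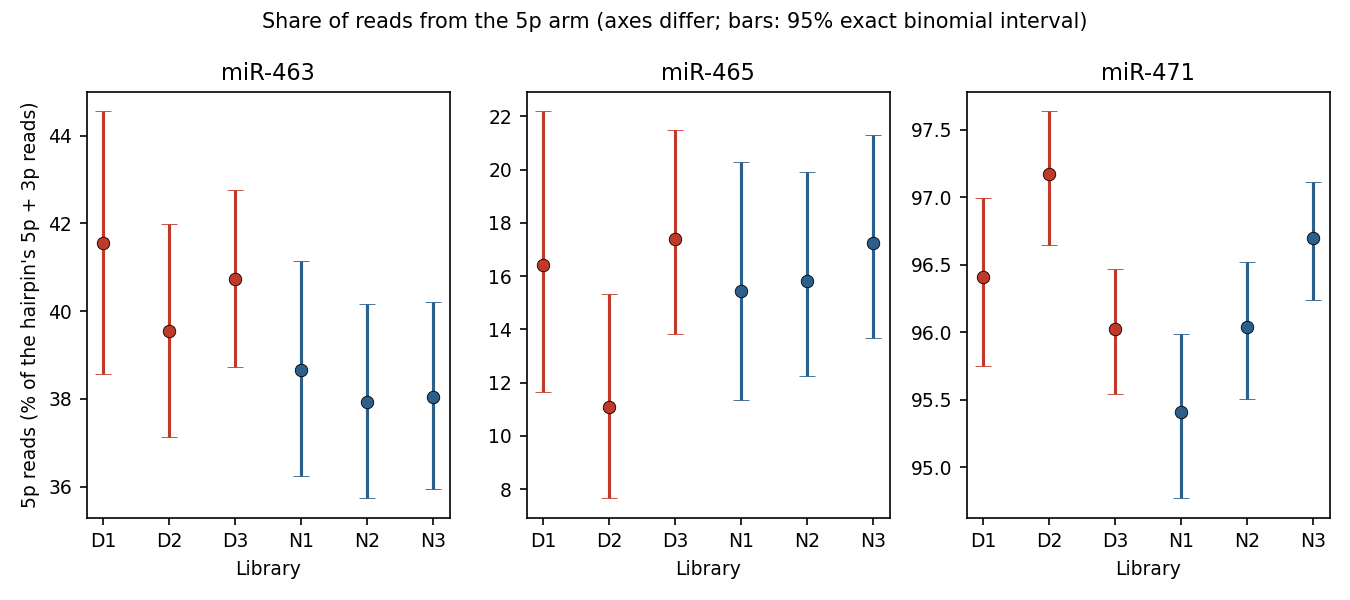
Share of each hairpin's reads that came from the 5p arm, in percent, in diabetic (D1 to D3, red) and normal (N1 to N3, blue) libraries, with exact binomial 95% intervals and a separate axis for each hairpin. The miR-463 groups do not overlap (39.5% to 41.5% against 37.9% to 38.7%), and diabetic replicate 2 is lowest for miR-465 at 11.1% and highest for miR-471 at 97.2%.

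The arms were set beside their X-linked neighbours, miR-201, miR-509, miR-547, miR-741, miR-742, miR-743a, miR-743b, miR-871, miR-878, miR-880, miR-881 and miR-883. Of 23 listed neighbour arms 22 were tested. Of these 13 were higher and 9 lower in diabetic testis, with a median log2 difference of 0.03. This split depended on the scaling, since the number higher was 10 of 22 with DESeq2 or TMM factors and 9 with upper-quartile factors, so that most were then lower. An adjusted p under 0.05 was reached by 0 of 22 in limma and an unadjusted one by 4, against 8.82% of all 578. The latter were miR-741-3p, miR-547-3p, miR-743a-5p and miR-742-5p, of which the last 2 were named after their values were seen. Among neighbours miR-741-3p was the most abundant, with a mean of 42380 ± 2510 CPM for diabetic and 36256.5 ± 535 CPM for normal testis (SD, n = 3 each). miR-547-3p came next, with 15996 ± 1002 against 18336 ± 394 CPM. Their log2 differences were 0.22 (SE 0.08, limma adjusted p = 0.348) and -0.20 (SE 0.08, limma adjusted p = 0.486). Together with the 6 members, these X-cluster arms took 11.8% ± 0.542 of listed reads in diabetic and 11.1% ± 0.160 in normal testis (SD, n = 3 each). All diabetic libraries lay above all normal ones (exact permutation p = 0.1, the smallest possible). Groups did not overlap for 14.9% of single miRNAs. The sum weighs most on its abundant arms, of which miR-741-3p was higher and miR-547-3p lower in diabetic testis. It leaves out miR-3551 and miR-3580, whose genes lie in the block from Mir743a to Mir465. It also leaves out miR-3585, whose gene lies between Mir465 and Mir201. The sum does include miR-201, miR-547 and miR-509, whose genes lie outside that block. The 6 members' part of these X-cluster reads was 14.3% ± 0.690 in diabetic and 14.5% ± 0.903 in normal testis (SD, n = 3 each; exact permutation p = 0.8).

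Over the 6 libraries, the miRNAs whose level most resembled the summed level of the 6 arms were miR-1839-5p (Pearson r = 0.967), miR-125a-5p (0.904), miR-3580-3p (0.903), miR-140-3p (0.897) and miR-743b-3p (0.896). They were taken from 251 miRNAs that had 10 reads or more in each library. The 6 points share their libraries and the common total of CPM, and the values are a description.

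Summed levels of cell type markers are given beside these results. The 2 miR-202 arms, found in Sertoli cells, summed to 4102 to 4467 CPM in diabetic and 3262 to 3693 CPM in normal libraries. That sum was mostly miR-202-5p, with a mean of 3723 CPM against 140 CPM for miR-202-3p, and 1 of the 2 arms had a positive difference. The 2 miR-126a arms of endothelium summed to 11721.5 to 13783 and 8662 to 11086 CPM, and miR-122-5p of liver and plasma stood at 935.5 to 1372 and 1839 to 2786 CPM. For each of these 3 of 7 lists the groups lay apart (exact permutation p = 0.1, the smallest possible), where 14.9% of single miRNAs did so, and 0 of their 5 miRNAs had an adjusted p under 0.05 in limma. Ranges overlapped for the germ-cell list (311911 to 333840 against 306978 to 355974 CPM), the 4 smooth muscle miRNAs (85959 to 96015 against 79267 to 97409), the 4 leukocyte miRNAs (495 to 651.5 against 592 to 762) and the 3 red blood cell miRNAs (from 535 in the lowest diabetic library, with the normal range of 650.5 to 698 inside the diabetic one). Of the leukocyte list, miR-223-3p was at 0 in 3 libraries. The germ-cell sum was mostly miR-34c-5p, with a mean of 291471 CPM. The smooth muscle sum was mostly miR-143-3p, with a mean of 84233 CPM. The part of these cell types in the miR-463-5p level and arm share was not tested. Set against the germ-cell list, and so mainly against miR-34c-5p, the 6 arms came to 5.22% ± 0.447 of the list's level in diabetic and 4.84% ± 0.529 in normal testis (SD, n = 3 each; exact permutation p = 0.4).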

How the data were processed

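Small RNA of rat testis was sequenced in 3 diabetic and 3 normal libraries, which the sample labels assign to their groups. By the methods of the study, the authors removed adaptors, annotated miRNAs with miRBase and screened them with DESeq. The submitters' processing notes list Bowtie 0.12.2, HISAT2 2.0 and StringTie 1.3.0 and the mouse build mm8 without roles, and the extraction label describes a poly(A) library, unlike the methods. How reads matching several miRNAs were shared is not given in the sources used here. The deposited values are CPM rounded to 1 decimal by the authors, under headings that say TPM. CPM ties each miRNA to all others of its library. Whole reads were recovered for 100% of values (tolerance: rounding to 1 decimal). A floor of 3 reads was worth 5.46 to 9.82 CPM, and each member lay above it in each library.

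Features reaching 1 CPM or more in 3 or more libraries were tested by limma 3.58.1 (R 4.3.3, eBayes with trend) on log2(CPM + 1), as fixed for normalized values. Adding 1 CPM understates differences of scarce miRNAs. Arm ratios were log2 differences of the arms, fitted over hairpin names with both arms past that filter and with mean level as the trend. The fits were tested on simulated data with planted changes much larger than the differences of the arms here. That check says nothing about the power to find differences of this size. Two-sided exact permutation tests (SciPy 1.17.1) were used for single values. edgeR 4.0.16 and DESeq2 1.42.0 served as alternatives, with other scalings, pseudocounts, filters, thinning to 305476 reads, a replicate block and leaving out each replicate. Folding used ViennaRNA 2.7.2 and alignment Biopython 1.88. RefSeq positions are GRCr8 and were not taken from the study.

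The members, lists and tests were chosen with earlier results of these data known. Named miRNAs were all 6 members, the 5 with the most similar pattern and the 2 most abundant neighbours. Any sharing a member's seed was also to be named, and the RefSeq sequences held 0. Those sequences matched 492 of the 539 listed miRNAs whose names begin with rno, and the rest of the list was not searched.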

Additional observations from a re-analysis of the deposited data

How the results depend on the processing

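Over the alternatives run, an adjusted p under 0.05 was reached by 0 of the 6 arms and 0 of the 3 arm ratios. Adjusted p-values ran from 0.553 to 0.976 for miR-463-5p over 17 alternatives and from 0.758 to 0.948 for the miR-463 arm ratio over 12, and both kept a positive sign throughout. The miRNAs with an adjusted p under 0.05, 0 in limma, numbered 8 without the eBayes trend, 2 with edgeR, and 1 with upper-quartile factors, TMM factors, no filter, a minimum of 10 reads per library, DESeq2 and the replicate block, and 0 to 1 without single replicates. At an unadjusted p the 51 became 25 with that minimum, and the same minimum on both arms took the arm-ratio calls from 1 to 0 (adjusted) and from 6 to 3 (unadjusted), and both fits then test fewer features. With upper-quartile factors the difference in share moved to -0.0421 percentage points for the 6 arms and to -0.0387 for miR-471, and the neighbours' median log2 difference to -0.0813, while the median of all miRNAs moved to -0.10. The neighbours higher in diabetic testis, 13 of 22, numbered 10 with edgeR, DESeq2 and the DESeq2 or TMM factors, 9 with upper-quartile factors and 11 after thinning. The neighbours' median was 0.0968 with the minimum of 10 reads and 0.0291 to 0.0854 without single replicates, the highest without diabetic replicate 2. Other causes of these moves were not tested.

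Without single replicates the log2 arm ratio ran from -0.65 to -0.60 for miR-463, from -2.48 to -2.33 for miR-465 and from 4.63 to 4.78 for miR-471, and the steps between arms in order of level ran from 2.27 to 2.32, 0.60 to 0.65, 1.30 to 1.37, 0.36 to 0.53 and 1.91 to 2.05. With 5 libraries a sign-flip test cannot give a p under 0.0625, so its p says nothing about stability here. Deviations of same-numbered libraries correlated at 0.0065, -0.0688 and -0.0894 over 257 miRNAs, so no pairing by number was seen, though so few libraries cannot exclude it. The replicate block gave a limma adjusted p of 0.787 for miR-463-5p and changed no call of an arm. Relating the 6 arms to X-cluster reads or to the germ-cell list was added after seeing the data. Depth limits miR-465-5p most, with 31 to 70 reads per library.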

Other observations

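The block of miRNA genes that holds these hairpins includes a pair that the neighbour list did not name, Mir3551 beside Mir471 and Mir3580 beside Mir465. miR-3580-3p, the arm that ranked with the members' pattern, averaged 2664 CPM and ran from 2294 to 2978 CPM over the 6 libraries. Its level gave a log2 difference, diabetic minus normal, of 0.10 (SE 0.11, limma adjusted p = 0.808). Its 5p arm averaged 160 CPM, so the 3p arm led, as in miR-465 and miR-463. The miR-3551 arms were scarce, at 30.65 CPM (3p) and 36.55 CPM (5p), with log2 differences of 0.51 and -0.47 (limma adjusted p = 0.795 for each). Across the block, 21 of 26 mature sequences in the RefSeq table began with U, against 251 of 693 among all mature names.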
